A study of Mus musculus with 2 samples.

Results

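A set of genes of amyloid precursor protein processing and of hydrogen peroxide production was followed, 8 of the 32285 genes counted. They were the precursors App, Aplp1 and Aplp2, the secretase genes Psen2, Bace1 and Adam10, and the NADPH oxidase genes Nox1 and Nox4. They were taken by gene symbol, and the set was chosen from earlier WT and KO levels in these same libraries, so the ratios of KO to WT given here are descriptions without a test. Nuclei came from the interscapular brown adipose tissue (BAT) of 8-week-old mice, and per the study's methods its mice were male littermates. WT mice carried Srsf1 flox/flox, and KO mice carried Adipoq-Cre; Srsf1 flox/flox, in which Cre recombinase driven by the Adipoq promoter removes the splicing factor gene Srsf1 from mature adipocytes. Both genotypes thus shared the floxed Srsf1 alleles, 1 library was made per genotype, and how many mice were pooled or used for either library is not stated in the sources used here. Any difference between WT and KO is therefore also a difference between 2 libraries, and no replicate error could be given.

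The amyloid precursor protein spans the membrane once and is cut outside it by an alpha-secretase such as ADAM10 or by the beta-secretase BACE1. The stump is then cut inside the membrane by gamma-secretase, whose catalytic subunit is a presenilin. APLP1 and APLP2 are relatives of APP that are cut by the same enzymes but hold no amyloid-beta sequence. NADPH oxidases pass electrons from NADPH to oxygen, and NOX4 yields mainly hydrogen peroxide. Adipocytes and macrophages of adipose tissue are both known to make APP.

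The start regions of 3 members are shown, because App and Nox4 had the largest ratios of KO to WT in adipocyte-like nuclei and Aplp2 is the relative of App with a sizeable level there. Each sequence runs from 250 bases before to 50 bases after the RefSeq start on GRCm38.p6 and is written 5′ to 3′ in the direction of the gene, with GC boxes (GGGCGG on either strand) in capitals. They are chr16:85173658-85173957 on the minus strand for App, chr9:31211799-31212098 on the minus strand for Aplp2 and chr7:87246399-87246698 on the plus strand for Nox4.
App: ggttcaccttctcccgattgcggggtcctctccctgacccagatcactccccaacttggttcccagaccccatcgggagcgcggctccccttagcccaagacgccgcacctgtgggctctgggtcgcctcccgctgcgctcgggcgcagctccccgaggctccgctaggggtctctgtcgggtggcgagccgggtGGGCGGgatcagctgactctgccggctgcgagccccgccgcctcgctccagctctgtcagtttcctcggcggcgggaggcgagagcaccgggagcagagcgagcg
Aplp2: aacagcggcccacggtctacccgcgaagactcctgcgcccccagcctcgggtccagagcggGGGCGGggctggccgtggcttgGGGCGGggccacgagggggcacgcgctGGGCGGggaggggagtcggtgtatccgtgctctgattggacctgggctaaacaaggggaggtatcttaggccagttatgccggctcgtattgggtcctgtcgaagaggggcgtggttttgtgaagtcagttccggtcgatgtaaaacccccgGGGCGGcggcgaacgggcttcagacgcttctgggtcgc
Nox4: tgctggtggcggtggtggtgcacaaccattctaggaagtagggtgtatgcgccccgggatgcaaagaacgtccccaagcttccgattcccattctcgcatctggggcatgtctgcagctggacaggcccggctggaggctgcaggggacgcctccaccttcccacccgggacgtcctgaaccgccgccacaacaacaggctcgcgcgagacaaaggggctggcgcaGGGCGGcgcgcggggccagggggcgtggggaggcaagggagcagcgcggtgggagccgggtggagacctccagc
The App window held 1 GC box and 71.0% G or C, the Aplp2 window 4 boxes and 67.0%, and the Nox4 window 1 box and 68.3%. Of all 32851 RefSeq windows of this length, 35.7% held a GC box and the median G or C content was 52.7%. The Nox1 window, chrX:134111805-134112104 on the minus strand, held no GC box and 38.0% G or C. Letters CCAAT were found in the Aplp2 and Adam10 windows, 2 times each, against 37.4% of all windows. The letters TATAAA, present in 13.6% of all windows, and the cAMP response element TGACGTCA, present in 1.79%, were in none of the 8 windows of the 7 members matched. Bace1 was not matched. Both strands were searched, and a match is a description of the letters, not of a bound site.

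In the annotation of GRCm38, App covers chr16:84949685-85173766, Aplp1 chr7:30434982-30445535, Aplp2 chr9:31149557-31211815 and Psen2 chr1:180227004-180263438, all on the minus strand. Bace1 lies at chr9:45838580-45864399, Adam10 at chr9:70678997-70780229 and Nox4 at chr7:87246096-87398710 on the plus strand, and Nox1 at chrX:134086421-134221956 on the minus strand. The App locus spans 224082 bases and holds 3 counted genes on the opposite strand, Gm10791, Gm49226 and Gm49227. In adipocyte-like nuclei the highest of the 3, Gm49226, was at 1.71 UMIs per 1000000 in WT and 2.96 in KO. On the strand opposite Psen2, Gm31728 was at 3.79 and 6.28, and on the strand opposite Bace1, Rnf214 was at 106 and 85.9. Whether strand was used in counting is not stated in the sources used here. The annotated Nox1 locus overlaps Xkrx on the same strand, so Nox1 counts are less certain. Xkrx itself had 18 UMIs in WT and 35 in KO adipocyte-like nuclei. On the strand opposite Nox1, Cstf2 was at 17.5 and 14.3 UMIs per 1000000 in the same nuclei, and Arl13a at 2.26 and 1.15.

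The deposited matrices held 93102814 UMIs (unique molecular identifiers, 1 per captured RNA molecule) in 12846 barcodes for WT and 80090208 in 11495 for KO, and 52 barcodes occurred in both. The median mitochondrial share of UMIs per nucleus was 1.10% in WT and 0.0491% in KO. After filtering, 12771 and 11378 nuclei were left, and each was assigned to a class when its UMIs for 1 of 8 marker lists exceeded the number expected from nuclei of other classes. This gave 3133 adipocyte-like nuclei in WT and 2677 in KO, 614 and 2175 adipose stem and progenitor cell (ASPC)-like, 3325 and 1372 endothelial-like, 824 and 2931 macrophage-like, and 488 and 235 mural-like nuclei. Another 32.4% of WT and 15.5% of KO nuclei stayed uncalled. Within 0.5 of the limit lay 374 WT and 105 KO adipocyte-like nuclei. In WT, 7 of the 8 adipocyte markers were highest in the adipocyte-like class, and in KO all 8 were. Adipocyte-like nuclei of the genotypes hardly shared a Leiden cluster: cluster 4 held 3674 WT nuclei and 1 KO nucleus, and cluster 23 held 11 WT and 2443 KO nuclei.

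Levels are UMIs of a gene per 1000000 UMIs of the same class and library (CPM). Their 95% exact Poisson intervals cover counting error only. For Srsf1, the gene removed in the KO, adipocyte-like nuclei were at 188 CPM in WT and 60.6 CPM in KO, a log2 ratio of -1.63 (-1.71 to -1.55). It was also lower in KO in the 4 other main classes, with log2 ratios from -0.96 in macrophage-like to -0.60 in mural-like nuclei. Adipocyte markers were also counted in WT nuclei of the other classes. By the median over the 8 adipocyte markers, ASPC-, endothelial-, macrophage- and mural-like nuclei carried 49.5%, 49.4%, 48.8% and 52.9% of the adipocyte-like marker level in WT, but 13.1%, 12.6%, 11.5% and 11.4% in KO. Ratios of the members outside adipocytes were therefore also taken with this RNA reduced. Those of Srsf1 and of other pathway genes are given only as measured.

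App, the precursor gene itself, went from the lowest of the 5 main classes in WT adipocyte-like nuclei to the second highest in KO. WT adipocyte-like nuclei had 2144 App UMIs, or 69.4 CPM (66.5 to 72.4), and KO adipocyte-like nuclei had 23080, or 912 CPM (900.3 to 924). The level in KO was 13.1 times that in WT, a log2 ratio of 3.72 (3.65 to 3.78). Of the 15311 genes with at least 50 UMIs in these nuclei, 3.44% had a larger ratio than App. In WT the order was macrophage-like at 495 CPM, endothelial-like at 411, ASPC-like at 289, mural-like at 272 and adipocyte-like at 69.4. Only the ASPC-like and mural-like neighbours did not differ beyond counting error, by 0.09 on the log2 scale (-0.03 to 0.21). In KO the order was macrophage-like at 1033 CPM, adipocyte-like at 912, endothelial-like at 804, mural-like at 646 and ASPC-like at 571, and each step exceeded counting error.

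App ratios in the other classes lay close to 2-fold as measured. They were 1.06 on the log2 scale in macrophage-like (1.01 to 1.11), 0.97 in endothelial-like (0.91 to 1.02), 0.98 in ASPC-like (0.90 to 1.06) and 1.25 in mural-like nuclei (1.10 to 1.39). The small lymphocyte-like class, with 60 WT and 155 KO nuclei, was at 79.7 and 453 CPM, and the Schwann-like class, with 102 and 30 nuclei, at 261 and 852 CPM. App was higher in KO in every one of these classes, with the largest ratio in adipocyte-like nuclei. The WT level of the lymphocyte-like class, which had the next largest ratio, 2.51, rests on 16 UMIs.

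**Figure D1:**
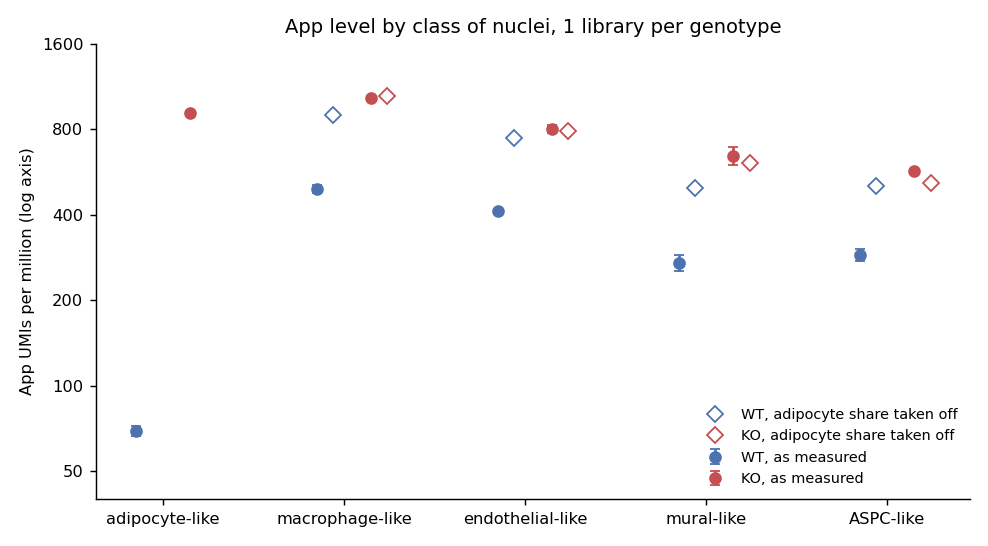
App level in UMIs per 1000000 (log axis) by class for WT (blue) and KO (red). Filled points are measured levels with 95% exact Poisson intervals, and open diamonds are levels after the adipocyte share was taken off. WT and KO diamonds lie closer together than the filled points in the 4 classes outside adipocytes. The closest are ASPC-like nuclei at 505 and 519, and the widest in ratio are mural-like nuclei at 499 and 611. Adipocyte-like nuclei go from 69.4 to 912.

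Outside adipocytes the App ratio was smaller in nuclei with fewer adipocyte markers. Nuclei at or below their class's median share of adipocyte markers were taken in a comparison chosen after the data had been seen. In macrophage-like nuclei App was then at 866 CPM in WT and 1120 in KO, in endothelial-like nuclei at 641 and 811, in ASPC-like nuclei at 431 and 519, and in mural-like nuclei at 444 and 635. The log2 ratios came to 0.37, 0.34, 0.27 and 0.52, all below 1.5-fold. WT levels moved more than KO levels did. Such a choice of nuclei can also change the mix of clusters, and the part of that was not tested. When the adipocyte-like profile was taken off each class in proportion to its markers, the log2 ratios were 0.22, 0.08, 0.04 and 0.29 in the same order. This second calculation takes all adipocyte marker UMIs in other classes as coming with the average adipocyte-like make-up.

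In adipocyte-like nuclei the App ratio was larger where markers of other classes were fewer. KO adipocyte-like nuclei carried more macrophage and ASPC markers, which summed to 540 CPM against 72.2 in WT and to 471 CPM against 87.0. By the median over markers, the macrophage share was 2.37% in WT and 11.1% in KO and the ASPC share 2.38% and 7.07%, but the endothelial share was 5.64% and 2.10%. At the make-up of the ASPC-, endothelial-, macrophage- and mural-like nuclei these shares would bring 179 of the 912 App CPM in KO, or 19.6%, and 46.5 of the 69.4 CPM in WT, or 67.0%. In the 1567 WT and 1339 KO adipocyte-like nuclei at or below the median share of other markers, App was at 41.9 CPM (38.6 to 45.3) in WT and 966 CPM (947 to 985) in KO. The log2 ratio there was 4.53 (4.41 to 4.65), larger than over all adipocyte-like nuclei. The main WT adipocyte cluster, cluster 4, was at 40.5 CPM, and the main KO adipocyte cluster, cluster 23, at 930 CPM. Cluster 23 held 14413 App UMIs in KO, so part of the 23080 of KO adipocyte-like nuclei lay in other clusters.

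App was found in more nuclei as well. At least 1 App UMI was counted in 30.7% of WT (29.1% to 32.4%, exact binomial interval) and 84.9% of KO adipocyte-like nuclei (83.5% to 86.2%), at median depths of 7423 and 6773 UMIs. With each nucleus thinned to 1000 UMIs the shares were 5.67% and 48.7%, and 10 WT and 55 KO nuclei were too shallow. At that depth 0.03% of WT but 9.61% of KO adipocyte-like nuclei held 3 or more App UMIs, and the mean was 0.06 against 0.86. In macrophage-like nuclei, which hold App in both genotypes, the thinned shares were 41.3% and 58.0%.

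**Figure D2:**
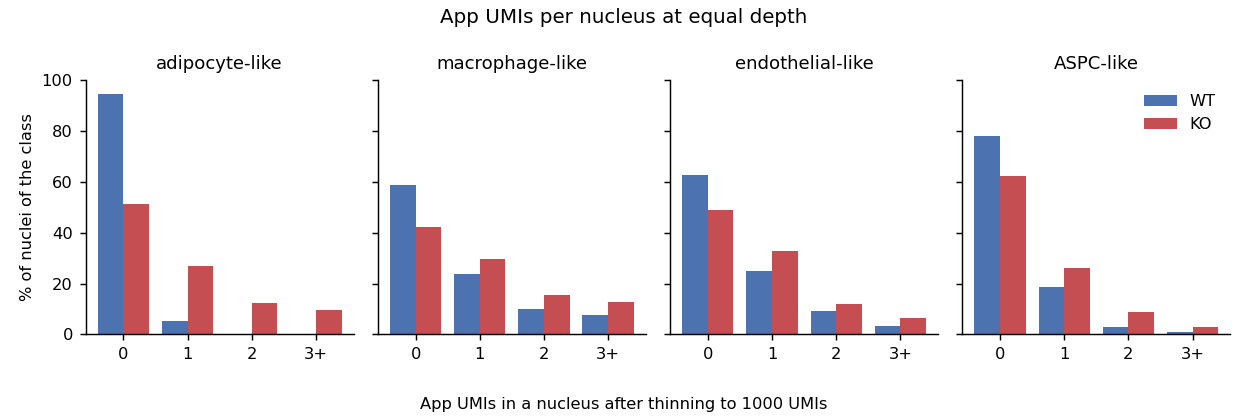
Percentage of nuclei with 0, 1, 2 or at least 3 App UMIs after thinning to 1000 UMIs, for WT (blue) and KO (red) in 4 classes. In adipocyte-like nuclei 94.3% of WT but 51.3% of KO nuclei held no App UMI, a wider gap than in the other 3 classes.

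App was higher in KO in each subset of adipocyte-like nuclei that was looked at after the data had been seen. WT nuclei with at least 1 Srsf1 UMI were at 70.3 CPM and those with none at 64.8, and KO nuclei were at 932 and 891 CPM, with log2 ratios of 3.73 and 3.78. Slc7a10 encodes an amino acid transporter of adipocytes. Nuclei with at least 1 Slc7a10 UMI were at 132 CPM in WT and 1063 in KO, and those with none at 52.2 and 798, so App was higher beside Slc7a10 in both genotypes. Nuclei with a UMI of either gene are also deeper ones. Adipocyte-like cluster 0, led by Serpina1a and Crtac1 and with 281 WT and 2 KO nuclei, stood above cluster 4 in WT, at 196 CPM of App (181 to 213) and 48.1 CPM of Psen2 against 11.8.

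Over all nuclei App was at 219 CPM in WT and 834 CPM in KO, a log2 ratio of 1.93 (1.91 to 1.95), and the difference of 615 App UMIs per 1000000 UMIs of the library was divided among the classes. Adipocyte-like nuclei carried 288 of it, or 46.9%, macrophage-like nuclei 207 or 33.6%, ASPC-like nuclei 102 or 16.5% and uncalled nuclei 51.7 or 8.4%. Endothelial-like nuclei took away 34.5, and their share of all UMIs was 20.5% in WT and 6.2% in KO. Adipocyte-like nuclei held 12.3% of all App UMIs in WT and 37.8% in KO. With level changes taken at KO shares and share changes at WT levels, higher levels within classes made up 94.4% of the whole difference. Other shares of UMIs among classes then made up 5.59%. These parts take class levels as measured, with the adipocyte RNA that other classes carried. By the markers, UMIs of adipocyte type over all classes were 72.2% in WT and 44.0% in KO. Level parts outside adipocytes were not corrected for this. For adipocyte-like nuclei the level part was 291 and the share part -3.0. For macrophage-like nuclei, whose share of UMIs went from 9.2% to 24.4%, they were 131 and 75.1. Level and share both rose there, so which of these parts is larger depends on the choice of weights. The opposite choice was not computed. When adipocyte-type UMIs of all classes were counted with the adipocyte-like nuclei, 57.1% of the difference fell to them. Fewer nuclei of a class and less RNA per nucleus cannot be told apart in such parts.

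**Figure D3:**
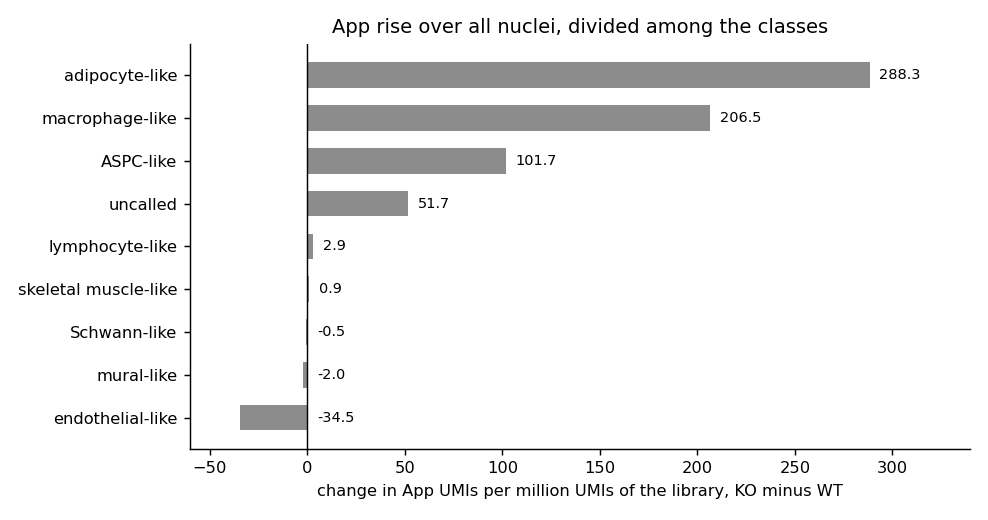
Change in App UMIs per 1000000 UMIs of the library (KO minus WT) by class of nuclei, whose bars add up to 615. Adipocyte-like nuclei carry 288, macrophage-like nuclei 207 and ASPC-like nuclei 102, and endothelial-like nuclei lie at -34.5.

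The largest App level of any cluster was in macrophage-like cluster 12, led by Lyve1, a marker of tissue-resident macrophages, and by Cd209b. It stood at 1076 CPM in its 92 WT nuclei and 1221 CPM in its 1713 KO nuclei, a log2 ratio of 0.18 (0.06 to 0.31). Cluster 13, most of the other WT macrophage-like nuclei with 586 WT and 32 KO nuclei, was at 491 CPM in WT, and cluster 14, with 1242 KO nuclei, at 848 CPM in KO. Each of these 3 clusters came mostly from 1 library, so the macrophage-like ratio of 1.06 compares different clusters in large part. The endothelial-like ratio of 0.97 has the same limit. Cluster 3, with 1631 WT and 10 KO nuclei, was at 654 CPM in WT. Cluster 22, with 27 WT and 1198 KO nuclei, was at 817 CPM in KO. Cluster 15, with 573 WT and 0 KO nuclei and adipocyte markers second in excess, was at 177 CPM. ASPC-like cluster 11, with 83 WT and 757 KO nuclei, was at 393 and 542 CPM. ASPC-like cluster 8, with 758 WT and 1140 KO nuclei, was at 242 and 556.

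Aplp2, the widely expressed relative of App, was the other precursor with a sizeable level. In adipocyte-like nuclei it was at 216 CPM in WT and 435 CPM in KO, a log2 ratio of 1.01 (0.97 to 1.05) that lies on the 2-fold limit. In WT the classes lay close together, from 157 CPM in ASPC-like to 243 in endothelial-like nuclei, with adipocyte-like nuclei second. In KO adipocyte-like nuclei were the highest, ahead of endothelial-like nuclei at 387, macrophage-like at 290, mural-like at 198 and ASPC-like at 171 CPM. Ratios outside adipocytes were 0.67 in endothelial-like, 0.55 in macrophage-like, 0.16 in mural-like and 0.13 in ASPC-like nuclei. In nuclei with few adipocyte markers the Aplp2 ratios were 0.32 in endothelial-like and 0.44 in macrophage-like nuclei, and lay below 0 in mural-like (-0.20) and ASPC-like nuclei (-0.03), both within counting error. With the adipocyte share taken off they were 0.49, 0.58, 0.32 and 0.42 in the same order. In adipocyte-like nuclei with few other markers it was at 212 and 464 CPM. Adipocyte-like nuclei made up 63.0% of its difference over all nuclei, where it was at 215 CPM in WT and 321 in KO.

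Aplp1, known mainly from neurons, was near 0 in every class. All WT nuclei together held 28 Aplp1 UMIs and all KO nuclei 31. WT adipocyte-like nuclei had 0, which allows up to 3 UMIs at this depth, and KO adipocyte-like nuclei had 13 UMIs in 12 nuclei, or 0.51 CPM (0.27 to 0.88). Endothelial-like nuclei had 13 UMIs in WT and 6 in KO. No ratio is given for Aplp1 by class, since each class held under 50 UMIs.

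The secretase genes had smaller ratios in adipocyte-like nuclei than App did, and they did not all lie on the same side. Psen2, a presenilin of gamma-secretase, was at 15.3 CPM (13.9 to 16.7) in WT and 29.5 CPM (27.4 to 31.7) in KO, a log2 ratio of 0.95 (0.78 to 1.12). Adam10, the main alpha-secretase, was at 108 and 133 CPM, a log2 ratio of 0.30 (0.23 to 0.37). Bace1, the beta-secretase, was lower in KO, at 21.1 CPM (19.5 to 22.8) in WT and 14.1 CPM (12.6 to 15.6) in KO, a log2 ratio of -0.58 (-0.77 to -0.40). The counts behind these values ran from 356 UMIs for Bace1 in KO to 3361 for Adam10 in KO.

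Of the main classes, Psen2 lay highest in WT macrophage-like nuclei, at 22.0 CPM, and its other 4 classes, from 15.3 to 11.9 CPM, did not differ from their neighbours beyond counting error. In KO it was at 29.5 CPM in adipocyte-like and 28.1 in macrophage-like nuclei, which did not differ either. Its ratio was 0.35 in macrophage-like (0.09 to 0.62), 0.50 in ASPC-like (0.12 to 0.89), 0.85 in mural-like (0.04 to 1.62) and 0.36 in endothelial-like nuclei (-0.00 to 0.72). In nuclei with few adipocyte markers it was 0.00 in macrophage-like, 0.06 in endothelial-like, -0.21 in ASPC-like and 1.28 in mural-like nuclei, and with the adipocyte share taken off -0.03, 0.27, 0.58 and 1.32. Adipocyte-like nuclei with few other markers gave 1.21, from 12.5 to 28.8 CPM.

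Bace1 lay lower in KO in all 5 main classes as measured, but not in ASPC-like nuclei with few adipocyte markers, at 18.9 CPM in WT and 19.3 in KO. The lowest ratio was in macrophage-like nuclei, where 129 WT and 135 KO UMIs gave 17.6 and 7.56 CPM, a log2 ratio of -1.22 (-1.58 to -0.86). ASPC-like nuclei were at 24.2 and 17.7 CPM, endothelial-like nuclei at 18.0 and 13.2, and mural-like nuclei at 28.3 and 25.2, the last within counting error (-0.85 to 0.46).  In macrophage-like nuclei with few adipocyte markers the Bace1 ratio was -0.68 (-1.39 to 0.07), from 24 WT and 60 KO UMIs, and 2-fold was not reached. With the adipocyte share taken off it was -1.10, and 9 alternatives of filter, class call and scaling gave -1.78 to -1.03.

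Adam10 had a small ratio in every main class. WT values ran from 94.5 CPM in mural-like to 166 CPM in macrophage-like nuclei, and KO values from 126 CPM in mural-like to 238 CPM in endothelial-like nuclei. Its ratios ran from 0.23 in ASPC-like to 0.58 in endothelial-like nuclei, but in macrophage-like nuclei with few adipocyte markers the ratio was -0.11. Among all 8 classes, lymphocyte-like nuclei had the highest WT level, 229 CPM from 46 UMIs (168 to 306).

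Nox1, a superoxide-producing oxidase, was highest in adipocyte-like nuclei of both libraries. It was at 22.7 CPM (21.1 to 24.5) in WT and 61.0 CPM (58.0 to 64.1) in KO, a log2 ratio of 1.42 (1.29 to 1.55). In WT the 5 classes lay between 14.1 and 22.7 CPM, and no classes next to each other in rank differed beyond counting error. The adipocyte-like interval still lay above those of macrophage-like (12.9 to 18.7), endothelial-like (13.6 to 17.5) and ASPC-like nuclei (11.1 to 17.6). It overlapped that of mural-like nuclei (15.0 to 24.7). In KO adipocyte-like nuclei stood apart, 1.36 on the log2 scale above macrophage-like nuclei at 23.7 CPM (1.21 to 1.52). Ratios in the other classes were 0.61 in macrophage-like, 0.38 in ASPC-like, 0.22 in endothelial-like and -0.47 in mural-like nuclei. With the adipocyte share taken off they were 1.10, 1.08, 0.50 and -0.98, and in nuclei with few adipocyte markers 0.45, 0.42, 0.37 and 1.17, the last from 4 WT and 6 KO UMIs. The size of the Nox1 ratio outside adipocytes thus differed between these treatments of adipocyte RNA. As measured, the interval spanned 0 in mural-like (-1.39 to 0.35) and endothelial-like nuclei (-0.16 to 0.59). The change of sign in mural-like nuclei is therefore not beyond counting error. Where other markers were few, adipocyte-like nuclei were at 25.1 and 74.7 CPM. The percentage of adipocyte-like nuclei with a Nox1 UMI was 15.6 in WT and 27.2 in KO, whereas among endothelial-like nuclei, at lower median depths of 2362 and 2198 UMIs, it was 5.14 and 4.08.

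Nox4 was a gene of ASPC-like nuclei in both libraries. These nuclei were at 356 CPM (340.3 to 372) in WT and 759.7 CPM (746 to 773) in KO, a log2 ratio of 1.09 (1.02 to 1.16), and at least 1 UMI was found in 54.2% and 70.2% of them. Of the 5 main classes, the next were endothelial-like nuclei in WT, at 36.5 CPM, and mural-like nuclei in KO, at 61.5 CPM. The 30 KO Schwann-like nuclei were at 174 CPM (119 to 244), from 33 UMIs. Among ASPC-like nuclei with few adipocyte markers Nox4 was at 662 and 1035 CPM, a ratio of 0.64 (0.55 to 0.74), and with the adipocyte share taken off at 698 and 867. ASPC-like cluster 11, with 83 WT and 757 KO nuclei, was at 1065 CPM in WT and 1227 in KO. ASPC-like cluster 8, with 758 WT and 1140 KO nuclei, was at 172 and 624. The ASPC-like ratio of 1.09 thus compares different mixes of clusters in part.

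Adipocyte-like nuclei had the lowest Nox4 level of the 5 main classes in WT, 7.25 CPM (6.33 to 8.26), and 52.7 CPM (49.9 to 55.6) in KO, a log2 ratio of 2.86 (2.66 to 3.07). ASPC markers moved with it. Per 1000 CPM of summed ASPC markers, Nox4 was at 83.3 CPM in WT and 112 in KO adipocyte-like nuclei, beside 101 and 108 in the ASPC-like nuclei and 108 and 117 in macrophage-like nuclei. It was less even in endothelial-like nuclei, at 103 and 68.0, and in mural-like nuclei, at 48.5 and 63.9. The ASPC share of adipocyte-like nuclei, 2.38% in WT and 7.07% in KO, would bring 8.46 CPM of Nox4 in WT and 53.7 in KO, beside the 7.25 and 52.7 measured. In adipocyte-like nuclei with few markers of other classes, Nox4 was at 3.53 CPM in WT and 12.5 CPM in KO, from 52 and 134 UMIs. Of the difference in Nox4 over all nuclei, from 44.5 to 208 CPM, ASPC-like nuclei carried 84.3% and adipocyte-like nuclei 9.4%. The level of ASPC-like nuclei and their share of UMIs both entered. With level changes taken at KO shares and share changes at WT levels, 70.7% of the difference lay in the level parts and 29.3% in the share parts. This split depends on the choice of weights, and the opposite choice was not computed. These parts were not corrected for adipocyte RNA in other classes.

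**Figure D4:**
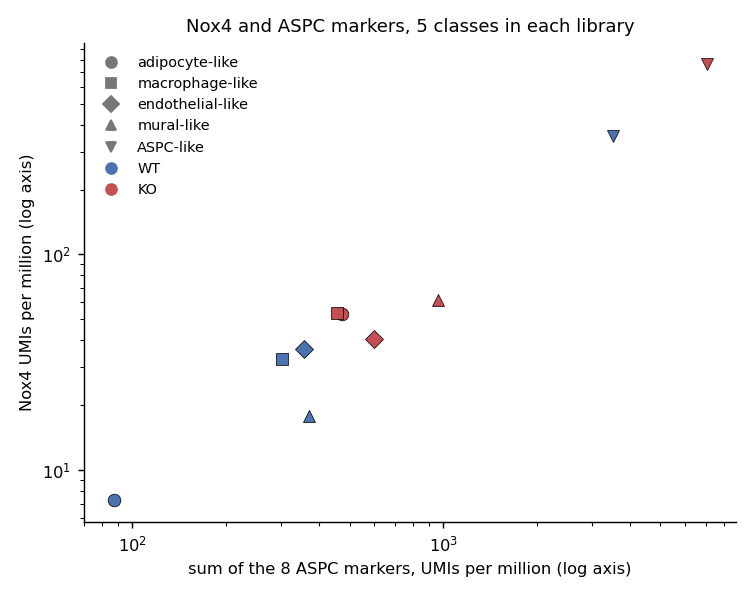
Nox4 level against the sum of the 8 ASPC markers, both in UMIs per 1000000 on log axes, for 5 classes (symbols) in WT (blue) and KO (red). Adipocyte-like nuclei lie at 87.0 on the marker axis and 7.25 on the Nox4 axis in WT and at 471 and 52.7 in KO, and ASPC-like nuclei lie highest on both axes.

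Counted together, 4 of the 8 members reached 2-fold higher in KO adipocyte-like nuclei and none reached 2-fold lower: App, Aplp2, Nox1 and Nox4. Aplp1 had under 50 UMIs there. Over all 15311 genes with at least 50 UMIs in these nuclei, 26.6% were at least 2-fold higher and 15.0% at least 2-fold lower, with a median log2 ratio of 0.21. Over all nuclei App and Nox4 passed 2-fold, where the percentages over all genes were 22.7% higher and 18.1% lower. In ASPC-like nuclei Nox4 alone passed, beside 10.9% of genes higher and 15.1% lower. In endothelial-like nuclei none passed, beside 10.2% higher and 17.3% lower. In macrophage-like nuclei App was higher and Bace1 lower, beside 10.4% and 18.4%, and in mural-like nuclei App and Nox4 were higher, beside 9.84% and 15.9%. The members were picked on this contrast, so nothing is read from these counts.

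**Figure D5:**
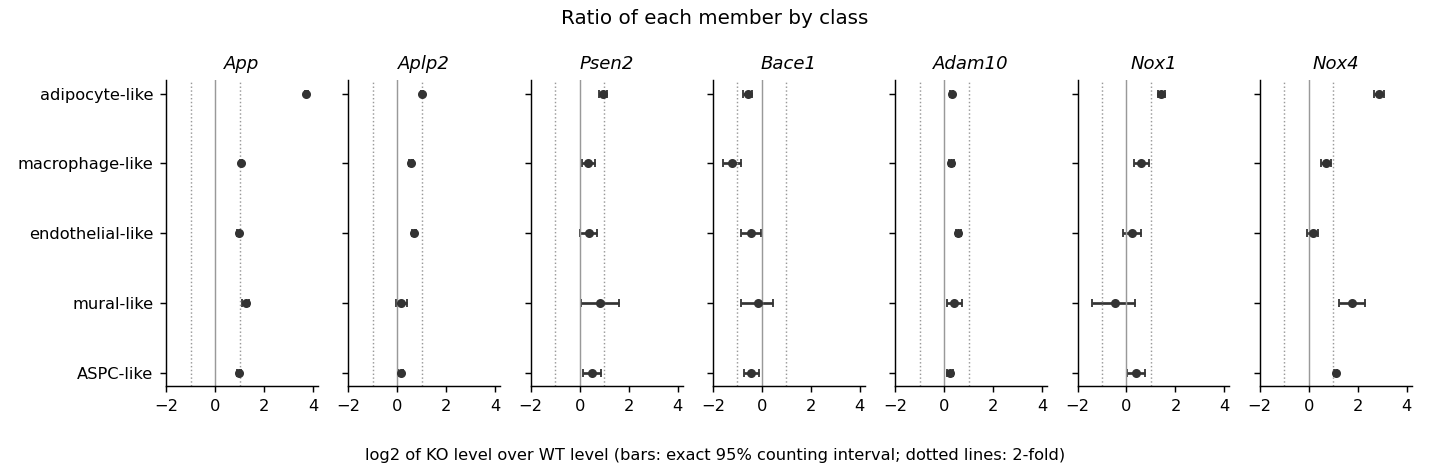
Log2 ratio of KO to WT level for 7 members in 5 classes, with exact 95% intervals for counting error and dotted lines at 2-fold. App stands at 3.72 in adipocyte-like nuclei against 0.97 to 1.25 in the other classes, and Bace1 lies below 0 in all 5 as measured.

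Other genes of the pathway, 66 on lists chosen with earlier results known, were counted in the same way. In adipocyte-like nuclei 58 of them had at least 50 UMIs, 24 were at least 2-fold higher and 7 at least 2-fold lower in KO, beside 26.6% and 15.0% of all genes tested, with a median log2 ratio of 0.64 against 0.21 over all genes tested. Among the 7 genes of gamma-secretase 1 was higher, Aph1c, from 31 to 330 UMIs, with a log2 ratio of 3.70. Of the 3 alpha-secretase genes, Adam10 included, Adam17 was higher, from 69.4 to 139.6 CPM with a ratio of 1.01. The second beta-secretase gene, Bace2, had too few UMIs.

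Of 12 genes for APP adaptors or their partners, 6 of 11 tested were higher and 2 lower, beside 26.6% and 15.0% of all genes. Apbb1ip had the largest ratio, from 10.9 to 153 CPM or 3.81, and Apba3 the lowest, from 55.6 to 11.7 CPM or -2.26. Apba3 was also the lowest of its list in the 4 other classes, with ratios from -2.02 in endothelial-like to -3.40 in mural-like nuclei. Its WT level in those classes was 32.2 to 39.4 CPM, beside 55.6 in adipocyte-like nuclei. The part of adipocyte RNA in these ratios was not tested. Of 12 genes of APP trafficking and of inhibitors, 3 were higher and 1 lower of 11 tested. Lrp1, a large endocytic receptor that takes up APP, went from 93.1 to 397 CPM, a ratio of 2.09, and Lrp1b from 4.50 to 0.67 CPM, a ratio of -2.74. Of 8 genes of amyloid degradation 2 were higher and none lower, with Ece2 at 5 and 47 UMIs. Mme, which encodes neprilysin, had the lowest ratio of that list in endothelial-, macrophage- and mural-like nuclei, for example from 111 to 24.2 CPM in endothelial-like and from 108 to 21.9 CPM in macrophage-like nuclei.

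The 4 NADPH oxidase genes with enough UMIs were all at least 2-fold higher in KO adipocyte-like nuclei. Of all genes tested there, 26.6% were higher and 15.0% lower. Nox1 and Nox4, 2 of the 4, were picked on this contrast, and Nox4 lay near what the ASPC share would bring. Cybb, the oxidase of phagocytes, had the largest ratio of the 4, 3.50, from 1.46 to 16.4 CPM. Cybb was at 117 CPM in KO macrophage-like nuclei, and the macrophage share of KO adipocyte-like nuclei was 11.1%. Of 9 oxidase partner genes 5 were higher and 1 lower of 8 tested. Ncf4, a phagocyte subunit, went from 9 to 83 UMIs, and Poldip2, a NOX4 partner, from 44.5 to 17.6 CPM, a ratio of -1.34. Poldip2 was also lower in endothelial-like, macrophage-like and mural-like nuclei, at -1.51, -1.41 and -2.14, from WT levels of 33.8, 28.9 and 32.8 CPM. The part of adipocyte RNA in these Poldip2 ratios was not tested. The part of macrophage RNA in the ratios of Cybb, Ncf4, Apbb1ip and Aph1c was not tested.

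Of 12 other gamma-secretase substrates, 4 were higher and 3 lower of the 10 tested in adipocyte-like nuclei, beside 26.6% and 15.0% of all genes. Cd44 went from 8.48 to 138 CPM, a ratio of 4.02, beside 585 CPM in KO macrophage-like nuclei. Erbb4, a receptor of neuregulins, went from 1743 CPM, with 53872 UMIs, to 47.2 CPM, a ratio of -5.21. Its ratio was -5.93 in ASPC-like, -5.82 in endothelial-like and -6.09 in macrophage-like nuclei, from WT levels of 844, 857 and 906 CPM. Adipocyte markers stood at a like part of their adipocyte-like level in these WT nuclei. Notch3 is a mural marker here. It had the largest ratio of the list in ASPC-like nuclei, 2.13, from 30.2 to 132 CPM.

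In the other classes the same lists were counted too. ASPC-like nuclei had 12 of 57 tested list genes higher and 5 lower, beside 10.9% and 15.1% of all genes, led by Aph1c at 2.76 and Duox1 at 2.49 on the log2 scale. Endothelial-like nuclei had 14 of 54 higher and 8 lower, beside 10.2% and 17.3%, with Aph1c at 3.31 and Cybb at 3.29. Macrophage-like nuclei had 8 of 51 higher and 9 lower, beside 10.4% and 18.4%, with Aph1c at 1.57 and Cybb at 1.52. Mural-like nuclei had 10 of 40 higher and 6 lower, beside 9.84% and 15.9%, with Cd44 at 2.54. Of the 5 main classes, Aph1c was highest in macrophage-like nuclei of both libraries, at 27.8 and 82.7 CPM.

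The genes most like App in level were sought over 14 profiles of a class in a library, each with at least 50 nuclei, among 12837 genes with at least 500 UMIs. They were Sbf2 with Pearson's r of 0.97 on the log2 CPM scale, B230216N24Rik with 0.93, Tdrd7 with 0.92, Pam with 0.91 and Vezt with 0.91. Profiles of 1 library share its depth and its free RNA, so r is a description. Of the 5, Pam, which encodes an enzyme that amidates peptides, was closest to App in its adipocyte-like ratio, from 54.0 to 566 CPM or 3.39. Sbf2 went from 213 to 582 CPM, a ratio of 1.45.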

How the data were processed

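Nuclei of interscapular BAT were measured by droplet snRNA-seq in 2 libraries, 1 WT and 1 KO. The deposited values are UMI counts that were not normalized, with genes in rows and nuclei in columns, made with Cell Ranger, whose version is 5.0.0 in the file headers and in the submitters' processing notes, while the methods name another version. STAR and GRCm38 are named in the methods. The sources do not say if reads in introns were counted. Nuclei were kept with at least 200 genes, at most 10% mitochondrial UMIs, and both UMIs and genes (log scale) no more than 3 median absolute deviations away from that library's medians. Class calls needed a marker excess of 2 on a square-root scale, 3 marker UMIs and a lead of 1 over the next class, over 5 rounds. Doublets were not called, and an alternative left out nuclei with 2 marker sums in excess. UMIs were summed by class and library and scaled to 1000000 (CPM). Ratios have exact 95% conditional intervals, and floors are 3 UMIs per library. Intervals and floors cover counting error only, and nuclei are not replicates, so no test was made. The ratio step was tested on simulated data. Leiden clustering used scanpy 1.11.5 and igraph 0.11.9 on 30 components with 15 neighbours at resolution 0.5, with the pathway genes kept out of the variable genes. Other tools were Python 3.11.15, numpy 2.4.6, scipy 1.17.1, pandas 2.3.3 and matplotlib 3.10.9.

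Named genes are the 8 members in each class, list genes with the largest ratio each way past 2-fold among those with at least 50 UMIs, of which part are printed outside adipocytes, the 5 genes most like App, Srsf1 and markers. Slc7a10, genes overlapping a member and leading genes of a cluster were named after their values were seen. The members, marker lists and pathway lists were chosen with earlier results of these data known. Alternatives covered filters, depth, class calls, scaling, minimum and fold. Gene places are from GENCODE release M21, and start regions from RefSeq. Bulk RNA-seq and other assays of the study were not used here.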

Additional observations from a re-analysis of the deposited data

How the results depend on the processing

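App stayed higher in KO under all alternatives tried, over all nuclei and in adipocyte-like nuclei, but sizes moved. Over all nuclei the log2 ratio of 1.93 was 2.12 in nuclei with at least 3000 UMIs, 2.29 without nuclei with a second marker excess, 1.48 as the mean over nuclei, 1.81 when centred on the median of the ratios of the tested genes and 1.504 after thinning to 1000 UMIs. In adipocyte-like nuclei the ratio of 3.72 was 3.44 without a filter, 4.01 with 500 to 5000 genes and at most 5% mitochondrial UMIs, 4.05 with Leiden clusters, 2.66 with the markers named in the paper, 4.28 without a second marker excess, 3.85 as the mean over nuclei, 3.51 when centred and 3.89 after thinning. Chosen after seeing the data, nuclei with few other markers gave 4.53.

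The part of the App rise carried by adipocyte-like nuclei, 46.9%, was in the same order of settings 49.6%, 43.3%, 28.5%, 49.2%, 52.7%, 35.8%, 48.0% and 37.0%, and 47.9% in nuclei with at least 3000 UMIs. It was 57.1% with adipocyte-type UMIs of other classes counted in, a setting added after seeing the data. With Leiden clusters, cluster 17, with 1238 KO nuclei and both adipocyte and macrophage markers, was left uncalled. Its median excess was 3.50 for adipocyte and 3.49 for macrophage markers. It held 16344 of the 61031 App UMIs in KO, at 829 CPM. The causes of these moves were not tested.

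The 4 members past 2-fold in adipocyte-like nuclei were 3 to 5 under 13 alternatives. Aplp2 dropped out without a filter, at 0.99, and when centred, at 0.80. The Nox4 ratio there ran from 1.66 to 2.88. App ratios outside adipocytes ran under the same alternatives from 0.65 to 1.12 in macrophage-like, 0.32 to 1.19 in endothelial-like and 0.38 to 1.16 in ASPC-like nuclei, so 2-fold was not held there. No paired analysis was possible because each genotype had 1 library. Depth limits Aplp1 and the mural-like values of Psen2, Bace1 and Nox1, which rest on 15 to 95 UMIs a library.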
